A study of Mus musculus with 47 samples.

Results

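The 49 genes described here encode the machinery of DNA replication and S phase, and they were measured by RNA-seq among 45706 genes in C2C12, an immortalized line of mouse myoblasts. They were chosen by name and known role, by a rule with no measured value in it, although earlier results of these data were known. The list holds the 6 subunits of the MCM helicase, 5 genes of origin licensing and its inhibitor (Orc1, Orc6, Cdc6, Cdt1 and Gmnn), 8 genes of origin firing and the active helicase (Cdc7, Dbf4, Cdc45, Gins1 to Gins4 and Mcm10), and 8 primase and polymerase subunits. It also holds Pcna with the 5 subunits of its loader, 4 genes of strand joining and single-strand binding (Fen1, Lig1, Rpa1 and Rpa2), 5 genes of nucleotide supply (Rrm1, Rrm2, Tyms, Tk1 and Dut), 4 genes of chromatin assembly and maintenance at the fork (Uhrf1, Chaf1a, Chaf1b and Hells), and 3 regulators of the G1/S transition (E2f1, Ccne1 and Ccne2). All 49 passed the filter on low counts in each of the 23 comparisons.

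The cells were a polyclonal C2C12 population with endogenous MyoD1 and an added Halo-tagged MyoD1 (iMyoD1), and lines that carry inducible Cdh23 (iCdh23) or Mcam (iMcam). MyoD1 is the transcription factor that sets the muscle fate, and Cdh23 and Mcam are cell adhesion proteins. Each transgene stood under the doxycycline-responsive TRE3G promoter and had been inserted by PiggyBac transposition, and each group was given doxycycline (dox) or vehicle. Cells of iMyoD1 were taken at 0 h, after 24 h of dox or vehicle in growth medium, and at 24, 48 and 120 h of serum withdrawal, which starts differentiation, with dox or vehicle added at its onset. At 120 h, cultures were also passed through a 40 µm filter into a myoblast-enriched and a myotube-enriched fraction, while iCdh23 and iMcam were taken at 48 h only. Of the 16 groups, 15 hold 3 biological replicates and the myoblast-enriched fraction with dox holds 2. The study varied MyoD1 dose and the adhesion genes during differentiation, and the comparisons below ask how the replication genes differed with dox, with time, between fractions and between lines.

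Before S phase, Orc1, Orc6, Cdc6 and Cdt1 load the MCM helicase onto origins, a step that geminin (Gmnn) blocks later in the cycle. The kinase Cdc7 with its activator Dbf4 then turns the loaded helicase, together with Cdc45 and the GINS proteins, into the active form, and the polymerases copy DNA with the clamp Pcna. Many of these genes are targets of E2F transcription factors and are expressed in cycling cells, and myoblasts leave the cell cycle as they differentiate into myotubes.

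Promoter sequence is shown for 4 members described below: Mcm5, with the widest range of levels between groups (61.1-fold), Cdc6 (22.9-fold), Mcm6, which is nearer the members' median (10.9-fold), and Rfc1, with the narrowest (1.82-fold). Each is the RefSeq record on GRCm38.p6, 250 bases before to 50 bases after the gene's RefSeq start, printed 5′ to 3′ along the gene. Capitals mark matches on either strand to 4 E2F-type strings, TTTGGCGC, TTTCCCGC, TTTCGCGC and TTTGCCGC.
Mcm5 (chr8:75109259-75109558, plus strand): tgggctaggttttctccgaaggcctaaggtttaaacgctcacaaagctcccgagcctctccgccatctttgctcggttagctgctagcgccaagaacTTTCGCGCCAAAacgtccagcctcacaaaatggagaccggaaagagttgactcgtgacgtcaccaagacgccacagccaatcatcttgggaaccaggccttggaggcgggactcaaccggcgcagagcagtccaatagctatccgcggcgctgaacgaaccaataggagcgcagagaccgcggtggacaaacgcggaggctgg
Mcm6 (chr1:128359656-128359955, minus strand): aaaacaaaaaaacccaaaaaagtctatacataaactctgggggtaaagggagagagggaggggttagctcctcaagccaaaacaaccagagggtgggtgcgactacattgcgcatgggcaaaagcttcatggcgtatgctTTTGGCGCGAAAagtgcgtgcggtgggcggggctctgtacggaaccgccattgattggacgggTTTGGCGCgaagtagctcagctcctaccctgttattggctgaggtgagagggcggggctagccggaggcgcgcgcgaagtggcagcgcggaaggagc
Cdc6 (chr11:98907901-98908200, plus strand): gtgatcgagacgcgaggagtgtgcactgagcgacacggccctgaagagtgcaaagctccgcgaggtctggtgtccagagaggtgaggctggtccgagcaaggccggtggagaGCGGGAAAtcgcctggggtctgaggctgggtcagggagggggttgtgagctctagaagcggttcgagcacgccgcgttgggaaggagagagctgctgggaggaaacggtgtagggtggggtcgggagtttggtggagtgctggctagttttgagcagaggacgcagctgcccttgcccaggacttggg
Rfc1 (chr5:65335590-65335889, minus strand): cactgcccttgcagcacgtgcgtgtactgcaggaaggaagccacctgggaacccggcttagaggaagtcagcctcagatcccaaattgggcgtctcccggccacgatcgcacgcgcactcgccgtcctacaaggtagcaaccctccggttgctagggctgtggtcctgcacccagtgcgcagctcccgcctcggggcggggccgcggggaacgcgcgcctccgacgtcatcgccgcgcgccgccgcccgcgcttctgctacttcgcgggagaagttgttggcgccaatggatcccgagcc
In Mcm5, TTTCGCGC on the printed strand and TTTGGCGC on the other strand share bases, so that 1 run of capitals holds both, at 153 and 149 bases before the start. Mcm6 held such an overlapping pair at 110 and 106 bases before the start and a further TTTGGCGC at 47 bases, and Cdc6 held TTTCCCGC on the other strand at 138 bases before its RefSeq start. In GENCODE the gene Cdc6 starts earlier, at 98907801, so the whole printed record of Cdc6 lies inside that gene. Records were found for 40 members, 47 records in all, and 15 of these members (37.5%) held at least 1 of the 4 strings. By record this was 15 of 47, beside 2.27% of all 32851 records of this length. Rrm2 and Tk1, next after Mcm5 in the width of their range, have records that held none of the 4, so the promoters shown do not stand for all members with wide ranges. TTTGGCGC was in 6 members (0.514% of all records), TTTCCCGC in 7 (1.07%), TTTCGCGC in 7 (0.323%) and TTTGCCGC in 0 (0.441%). The CCAAT box was in 22 of the 40 members (55.0%) and in 24 of the 47 records, beside 37.4% of all records. CAGCTG, an E-box of the kind that MyoD1 binds, was in 5 members (12.5%), namely Cdc6, Orc1, Pola2, Rpa1 and Rrm2. By record it was in 5 of the 47, beside 16.3% of all records. No promoter record was matched for Gmnn, Gins1, Gins2, Gins4, Pole, Ccne2, Prim2, Mcm4 and Rfc2.

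Libraries held between 15066338 and 50950674 estimated counts, with a median of 22837926. Levels are read counts scaled to library size (CPM), which can be compared between groups but not between genes, or transcript levels scaled also to length (TPM) where genes are compared. The 0 and 24 h libraries are in a table of their own and carry no batch label, while all others carry the batch label RNAseq_v2, so that time and this label cannot be told apart in the step between 24 and 48 h. Myod1 mRNA was not raised in the dox groups of iMyoD1 beyond the spread of the libraries in CPM: at 0 h it was at 202, 181 and 193 CPM with dox and 185, 174 and 184 CPM without, at 24 h between 109.6 and 123 CPM with dox and between 135.9 and 142 CPM without, at 48 h between 294 and 319 CPM with dox and between 384.5 and 391 CPM without, and in the 120 h whole cultures between 80.9 and 96.7 CPM with dox and between 228 and 302 CPM without. In the 120 h fractions it was between 208.5 and 366 CPM with dox and between 230.8 and 358 CPM without. In TPM, Myod1 at 0 h was higher with dox, at 217.9 ± 13.5 against 181.6 ± 6.07 (SD, n = 3 each). At 24 h it was at 123.5 ± 7.71 with dox and 114.7 ± 9.78 TPM without. At 48 h and in the 120 h whole cultures its mean TPM was lower with dox (282 against 338 and 107 against 286). Whether reads of the transgene were counted under Myod1 is not given in the sources used here, so these groups are named by their labels alone. Cdh23 in iCdh23 was at 566, 416 and 464 CPM with dox and already at 369, 343 and 444 CPM without, beside at most 57.3 CPM in every library of the other lines. Mcam in iMcam was at 69.2, 70.3 and 74.5 CPM with dox and at 19.5, 17.03 and 17.05 CPM without. In bulk RNA, fewer cycling cells and less RNA per cell cannot be told apart. Exons of 14 members overlap an exon of a gene on the opposite strand, and the strand setting of the counting is not given in the sources used here. Without these 14, the share of members past the test stayed within 1.5 times in 23 of 23 comparisons.

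The replication genes were highest in growth medium and lowest in 120 h whole cultures and in the adhesion lines with dox. Their summed level was 4728, 4669 and 4656 CPM at 0 h without dox, and 679, 698 and 763 CPM in iCdh23 with dox, the lowest group. Of the 49 genes, 43 had their highest group mean at 0 h without dox. The lowest mean was in iCdh23 with dox for 27 genes and in the 120 h whole culture without dox for 15. Between its highest and its lowest group, the median gene differed 9.86-fold.

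Across groups, the range was widest for Mcm5 (181 ± 3.52 CPM at 0 h without dox against 2.97 ± 1.20 CPM in iCdh23 with dox, SD, n = 3 each, 61.1-fold) and for Rrm2, the small subunit of ribonucleotide reductase (57.7-fold). It was narrowest for Rfc1, the large subunit of the clamp loader, which ran from 89.2 CPM to 49.1 CPM (1.82-fold), and for Rfc2 (2.88-fold). Per length at 0 h without dox, the genes spread from 9.49 TPM (Orc1) through a median of 54.7 TPM to 334 TPM (Pcna), with Rrm2 at 265 TPM and Tk1, which salvages thymidine, at 235 TPM. Orc6 (215.2 TPM) and Rpa1 (215.0 TPM) came next, and the kinase gene Cdc7 was among the low ones (11.98 TPM).

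**Figure D1:**
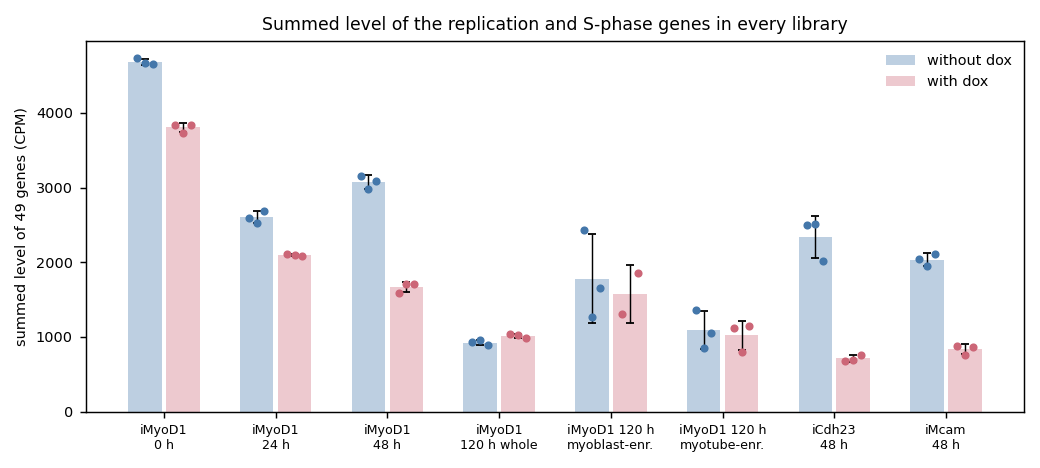
Summed level of the 49 genes (CPM, y axis) in each group (x axis), with dots for libraries, bars for group means and error bars for SD (n = 3, or 2 in the myoblast-enriched fraction with dox). The 0 h libraries without dox sit between 4656 and 4728 CPM, and those of iCdh23 with dox between 679 and 763 CPM.

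In the order of summed levels, 0 h without dox (mean 4684 CPM) was followed by 0 h with dox (3805), 48 h without dox (3072), 24 h without dox (2600) and iCdh23 without dox (2343). The libraries of neighbours in this order did not overlap over these first 4 steps. In the middle of the order, iCdh23 without dox (2020 to 2515 CPM), 24 h with dox (2080 to 2113) and iMcam without dox (1946 to 2116) overlapped. At the low end stood the 120 h whole cultures with (1016) and without dox (926), iMcam with dox (835) and iCdh23 with dox (713).

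**Figure D2:**
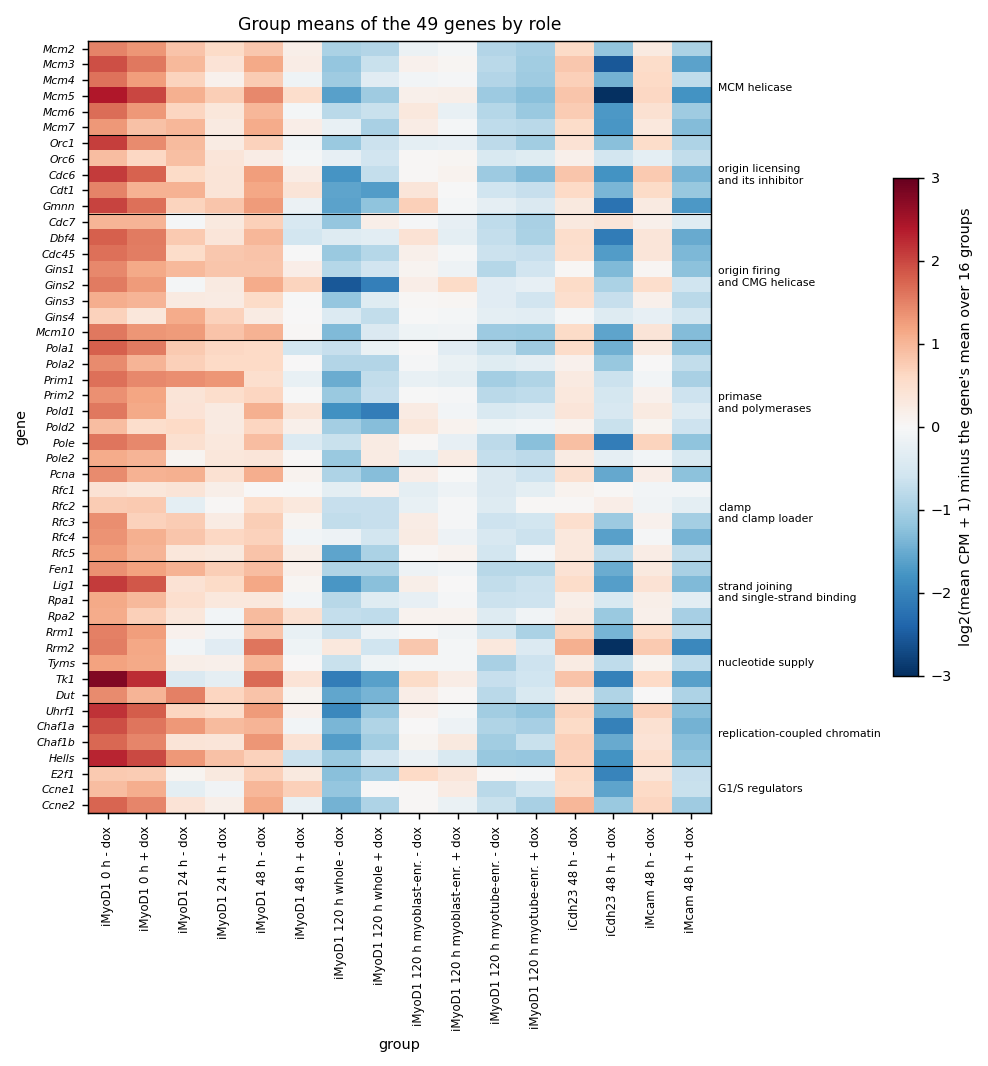
Group means of the 49 genes (rows, ordered by role) in the 16 groups (columns), as log2(mean CPM + 1) minus the gene's mean over the groups. Most rows run from red at 0 h to blue at 120 h and in iCdh23 and iMcam with dox, while Rfc1 stays near 0 throughout, from 89.2 down to 49.1 CPM.

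From 0 to 24 h without dox, 45 of the 49 genes fell past the test (edgeR's quasi-likelihood test, adjusted p under 0.05) and 1, Gins4, rose. The study seeded more cells for differentiation than for growth medium. Serum withdrawal and cell density therefore cannot be told apart between 0 and 24 h, with or without dox. Over all genes tested, 37.0% fell and 37.3% rose in that comparison. The median log2 fold change was −0.99 for the 49 genes and 0.01 for all genes, and 23 members fell over 2-fold, as did 16.6% of all genes. Tk1 moved most, from 174, 168 and 172 CPM to 17.5, 16.8 and 18.5 CPM (log2 fold change −3.27, SE 0.0627, adjusted p = 6.54e-14). Lig1, which seals the fragments of the lagging strand, fell from 143 ± 3.81 to 44.4 ± 3.13 CPM (SD, n = 3 each, log2 −1.68, SE 0.0633), and Gins2 from 45.3 ± 1.83 to 14.1 ± 1.26 CPM. These groups lay far apart, with no overlap between libraries. Gins4, a GINS subunit like Gins2, instead rose from 47.3, 48.98 and 44.7 CPM to 62.4, 62.8 and 66.9 CPM (log2 0.46, SE 0.0618, adjusted p = 1.19e-05). Orc6 (log2 −0.02), Rfc1 (−0.02) and Dut (0.10) did not pass the test.

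By role, all 6 MCM genes (median log2 −0.96), all 8 primase and polymerase genes (−1.01), all 4 joining and binding genes (−0.70), all 4 chromatin genes (−1.18) and all 3 G1/S regulators (−1.28) fell from 0 to 24 h. Nucleotide supply had the lowest median (−1.36, 4 of 5 fell), and the clamp with its loader the one nearest 0 (−0.57, 5 of 6 fell). Mcm5 went from 183, 184 and 177 CPM to 70.4, 70.4 and 73.5 CPM. With dox in both groups, 46 genes fell and Gins4 rose (34.0% and 34.0% of all genes), with a median of −0.74 beside 0.01 over all genes. In that comparison 17 fell over 2-fold (11.6% of all genes), led by Tk1 (log2 −2.52, SE 0.0627, adjusted p = 1.89e-12), Rrm2 (−1.47) and Cdc6 (−1.43).

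From 24 to 48 h without dox, 30 of the 49 rose and 9 fell, beside 38.4% and 38.4% of all genes, with a median log2 of 0.33. Tk1 stood at 82.1, 81.3 and 81.6 CPM at 48 h (log2 2.26 over 24 h, SE 0.0628), and Rrm2 at 329, 324 and 316 CPM after 104, 96.5 and 97.6 CPM (1.75, SE 0.0593, adjusted p = 1.08e-11). Cyclin E1 (Ccne1) went from 9.92 ± 0.985 to 25.7 ± 3.90 CPM (1.42). Of the other genes of nucleotide supply, Tyms (0.89) and Rrm1 (0.77) were higher at 48 h as well, while Dut was lower (−0.62). Lower at 48 h were the primase gene Prim1 (34.3 ± 1.45 against 64.4 ± 0.775 CPM, log2 −0.85), Gins4 (−0.83) and Orc6 (−0.63). With dox, the same interval had 6 genes higher and 32 lower (36.9% and 35.5% of all genes, median −0.41 beside 0.01), with Prim1 (−1.61), Hells (−1.59) and Pola1 (−1.24) lowest and Ccne1 (0.86), Tk1 (0.68) and Rpa2 (0.54) highest. The fit of all 16 groups together, with a shared spread, called 20 members without dox in place of 39 and 21 with dox in place of 38.

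All 49 genes fell from 48 to 120 h in whole cultures without dox, and 45 of them over 2-fold, beside 34.1% and 18.1% of all genes (33.0% rose). The median was −1.86, beside −0.03 over all genes. Cdc6, the licensing ATPase, went from 23.2, 19.6 and 20.9 CPM to 1.99, 1.30 and 2.02 CPM (log2 −3.55, SE 0.185, adjusted p = 8.30e-07). Tk1 ended at 6.13, 6.22 and 2.73 CPM (−3.98) and Mcm5 at 12.1, 10.2 and 8.56 CPM. Gins2 showed the largest difference (33.1 ± 3.02 to 1.71 ± 0.585 CPM, −4.24), but it is among the 14 genes with an overlap on the opposite strand, and it was between 1.32 and 3.35 CPM in the 120 h whole cultures and between 6.98 and 26.1 CPM in the 120 h fractions. By role, licensing (−2.97) and chromatin genes (−2.91) had the lowest medians and the clamp with its loader (−1.37) the highest.

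With dox, 39 genes fell and 3 rose from 48 to 120 h, beside 38.6% and 34.9% of all genes, and 20 fell over 2-fold (21.3% of all genes). The median was −0.85, beside −0.04 over all genes. Pold1, the catalytic subunit of polymerase delta, fell from 23.8 ± 1.13 to 3.47 ± 1.23 CPM (log2 −2.77, SE 0.194, adjusted p = 3.20e-08), and Cdt1 fell by 2.30 on the log2 scale. The 3 that rose were Cdc7 (0.73), Pole (0.72), the catalytic subunit of polymerase epsilon, and Pola1 (0.39). The dox and time comparisons share libraries, so they are not separate evidence.

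**Figure D3:**
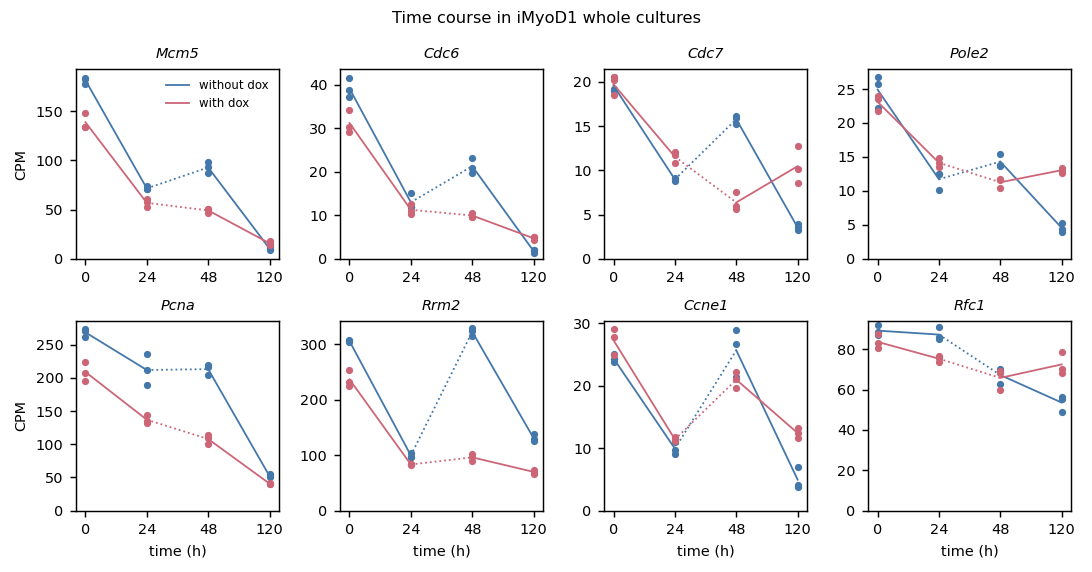
CPM (y axis) of 8 members in iMyoD1 whole cultures at 0, 24, 48 and 120 h (x axis, evenly spaced and not to scale), with dots for the 3 libraries of a group and lines through the means. Dotted lines join libraries of different tables, and Rrm2 without dox sits between 316 and 329 CPM at 48 h, above 90.2 to 102 CPM with dox.

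Dox in growth medium, at 0 h, lowered 38 of the 49 genes and raised 0, beside 18.7% of all genes lower and 19.1% higher. The shifts were small: the median log2 was −0.29 (0.00 over all genes) and 0 members passed 2-fold. DESeq2 called 37 lower and 0 higher, and 1 gene was higher at an unadjusted p under 0.05. All 6 MCM genes, all 5 licensing genes and all 4 chromatin genes were lower. Mcm5 was at 148, 134 and 134 CPM with dox and 183, 184 and 177 CPM without (log2 −0.38, SE 0.0559, adjusted p = 0.000135), so that the libraries did not overlap. Pcna stood at 224, 195 and 208 CPM against 274, 270 and 262 CPM (−0.35). The lowest were Rfc3 (−0.72, SE 0.0663), Orc1 (−0.72) and Tk1 (−0.54). Of the G1/S regulators, Ccne2 was lower (−0.27, with overlapping libraries), while E2f1 (−0.01) and Ccne1 (0.17) did not pass the test. The fit of all groups called 1 member.

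At 24 h of differentiation, dox went with 25 genes lower and 9 higher, beside 31.7% and 31.1% of all genes, so the share of members higher was below that of all genes and the share lower above it. The median was −0.19. Again all 6 MCM genes were lower, with Mcm7 at 84.1, 83.8 and 77.6 CPM against 137, 134 and 138 CPM (log2 −0.71, SE 0.0532, adjusted p = 2.89e-07), and so was Dut (−0.86), which keeps uracil out of DNA. Orc1 was lower as well (−0.84, SE 0.156). Higher with dox were Cdc7 (11.7, 10.8 and 12.1 CPM against 8.80, 8.98 and 9.15 CPM, 0.39), Rfc2 (0.37) and Gins2 (0.37), along with 6 others of at most 0.30. The summed level was lower with dox in CPM (2080 to 2113 against 2526 to 2688), but the libraries overlapped in TPM (1915 to 1983 against 1824 to 1998). CPM carries TMM scaling factors, here 1.13 to 1.14 with dox and 0.909 to 0.950 without, and TPM does not. The part of this scaling and of length in the difference was not tested. In the other iMyoD1 whole cultures, the TPM sums did not overlap between dox and vehicle. The fit of all groups called 9 members at 24 h.

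At 48 h, 48 of the 49 genes were lower with dox and 0 higher, beside 28.7% of all genes lower and 27.9% higher. DESeq2 also had 48 lower and 0 higher, and no member was higher at an unadjusted p under 0.05 (0 genes). The median was −0.91, beside 0.01 over all genes, and 18 genes were over 2-fold lower, beside 8.46% of all genes. The 49th, Rfc1, was at 69.2, 68.2 and 59.98 CPM with dox and 62.7, 70.3 and 68.7 CPM without (log2 −0.03, SE 0.0767, adjusted p = 0.722), with overlapping libraries.

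Among the genes of nucleotide supply at 48 h, Rrm2 was at 90.2, 96.6 and 102 CPM with dox and 329, 324 and 316 CPM without (log2 −1.76, SE 0.0658, adjusted p = 2.37e-08). Tk1 was at 26.2, 31.7 and 39.4 CPM against 82.1, 81.3 and 81.6 CPM (−1.35). Both stood apart by far more than the spread between replicates. For the initiation genes, Dbf4 was at 11.5, 11.1 and 9.98 CPM against 34.4, 34.9 and 31.7 CPM (−1.63, SE 0.0847), Gmnn at 7.76, 9.11 and 11.1 CPM against 28.3, 25.3 and 27.0 CPM (−1.55) and Cdc6 at 9.63, 9.59 and 10.5 CPM against 23.2, 19.6 and 20.9 CPM (−1.11). The licensing factors and geminin, which opposes them, were thus lower together. Cdc45 (−0.92), Cdt1 (−0.80) and Mcm5 (46.6, 50.1 and 50.6 CPM against 92.7, 87.1 and 98.4 CPM, −0.92) shifted by less than 2-fold.

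For the fork genes at 48 h, the clamp Pcna was at 99.6, 114 and 109.6 CPM with dox and 219, 204 and 216 CPM without (log2 −0.99, SE 0.0673). Pola1 (−1.19), Lig1 (−1.13), Fen1 (−0.81) and Pold1 (−0.70) were lower too, as was Uhrf1 (−1.17), which recruits the maintenance DNA methyltransferase. Of the regulators, Ccne2 was at 13.2, 14.8 and 12.1 CPM against 33.4, 34.1 and 39.5 CPM (−1.41), while E2f1 (−0.43) and Ccne1 (−0.30) differed less. Ccne1 passed the test although its libraries overlapped, with 22.2 CPM as the highest with dox and 21.4 CPM as the lowest without. By role the medians ran from −1.16 for chromatin genes and −1.08 for nucleotide supply to −0.43 for the G1/S regulators.

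At 120 h in whole cultures, 21 genes were higher with dox and 4 lower, beside 21.4% and 23.7% of all genes. The median was 0.48 (−0.00 over all genes), and 5 genes were over 2-fold higher, beside 7.32% of all genes. Levels were low on both sides for the 3 genes named next. Rpa1, also among the 21, had a mean of 65.0 CPM without dox. Cdc7 was at 12.7, 10.2 and 8.55 CPM with dox and 3.89, 3.53 and 3.20 CPM without (log2 1.56, SE 0.212, adjusted p = 0.000369), and Pole2 at 12.7, 13.3 and 13.1 CPM against 4.43, 3.89 and 5.31 CPM (1.51, SE 0.175, adjusted p = 0.000146). Cdc6 was at 4.89, 4.22 and 4.97 CPM against 1.99, 1.30 and 2.02 CPM (1.40). The other members over 2-fold higher were Ccne1 (1.31) and Mcm10 (1.09), and Mcm5 rose by less (14.3, 17.8 and 15.0 CPM against 12.1, 10.2 and 8.56 CPM, 0.60).

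The 4 members lower with dox at 120 h were Rrm2 (73.7, 66.1 and 69.7 CPM against 129, 138 and 126 CPM, log2 −0.92, SE 0.0860, adjusted p = 4.06e-05), Mcm7 (−0.79), Pcna (−0.36) and Orc6 (−0.35). Per length, the same 4 genes had the highest levels of the 49 in the culture without dox, with means of 118, 51.2, 73.0 and 97.3 TPM. Mcm7 and Orc6 are among the genes with an overlap on the opposite strand, and Rrm2 and Pcna are not.

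**Figure D4:**
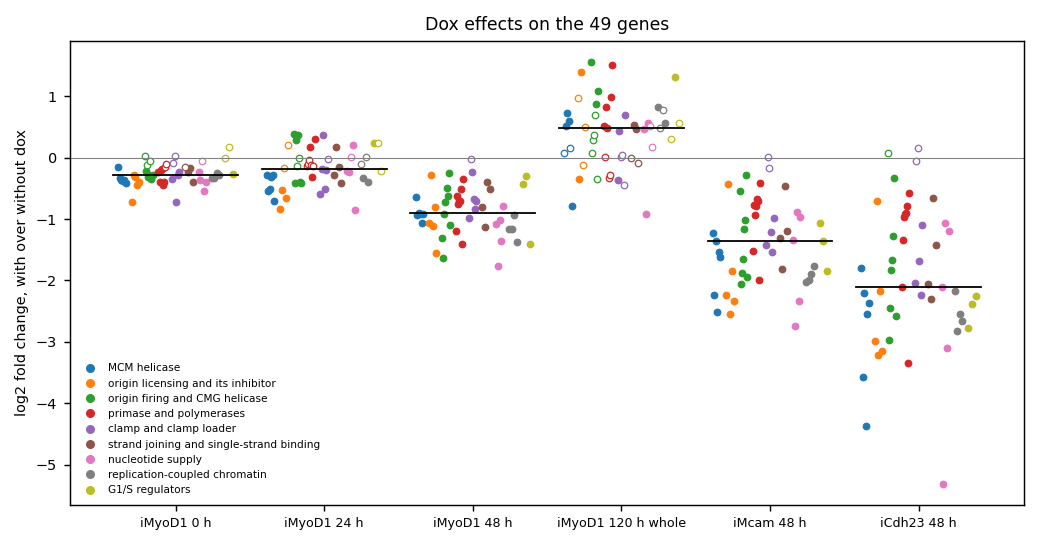
Log2 fold change with over without dox (y axis) for the 49 genes in the 6 whole-culture comparisons (x axis), colored by role, with filled dots for an adjusted p under 0.05 and a line at the median. The medians are −0.29, −0.19, −0.91 and 0.48 in iMyoD1 at 0, 24, 48 and 120 h, −1.36 in iMcam and −2.10 in iCdh23.

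Whether the dox effects differed between times was tested as an interaction. Between 0 and 24 h, 10 genes had a higher and 7 a lower dox effect at 24 h (13.3% and 20.7% of all genes), led by Tk1 (log2 difference 0.70, SE 0.0839) and Gins2 (0.61) upward and Dut (−0.51) downward. DESeq2 gave 12 higher and 3 lower. Over both directions, the share of members called by edgeR was near that of all genes. Between 24 and 48 h, 39 genes were lower and 1, Orc6 (0.23), was higher (20.7% and 22.7% of all genes), while DESeq2 gave 41 lower and 0 higher. The median difference was −0.66, with Gmnn at −1.76 (SE 0.158, adjusted p = 3.07e-07), Cdc7 at −1.70 and Tk1 at −1.55. That interaction compares within-table dox effects, and it was tested across the batch labels. The fit of all groups called 0 members between 0 and 24 h and 10 between 24 and 48 h, and without 24 h dox replicate 1 the first count was 10 in place of 17.

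From 48 to 120 h, the dox effect was higher at 120 h for 39 genes and lower for 0, beside 16.8% and 17.2% of all genes. DESeq2 had 41 higher and 0 lower, and 0 were lower at an unadjusted p under 0.05. The median difference was 1.40 (−0.01 over all genes), and 29 genes passed 2-fold (7.18% of all genes). Cdc7 led (2.87, SE 0.234, adjusted p = 7.59e-07), followed by Cdc6 (2.51) and Pole (2.4). All 4 chromatin genes (median 1.83), all 5 of nucleotide supply (1.55) and 4 of 5 licensing genes (2.04) were among the 39. Dox effects on Mcm7 (0.13), Orc6 (−0.07) and Gins4 (−0.10) did not differ past the test.

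In iCdh23 at 48 h, dox went with 46 genes lower and 0 higher, beside 32.4% and 31.3% of all genes, and 38 were over 2-fold lower (17% of all genes). DESeq2 called 46 lower and 0 higher, and 0 genes were higher at an unadjusted p under 0.05. The median was −2.10, beside −0.00 over all genes. Rrm2 was at 5.32, 3.69 and 7.78 CPM with dox and 204.5, 218 and 239.6 CPM without (39.6-fold lower, log2 −5.31, SE 0.270, adjusted p = 7.37e-06). Mcm5 was at 2.95, 1.78 and 4.17 CPM against 72.4, 66.2 and 45.2 CPM (20.7-fold lower, −4.37, SE 0.319), and Mcm3 at 5.78, 5.24 and 7.49 CPM against 82.4, 80.6 and 55.9 CPM (−3.57). Dox thus left these genes at a few CPM, and the third library without dox was the lowest of its group for Mcm3 and Mcm5 but the highest for Rrm2.

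Pcna in iCdh23 was at 29.4, 35.95 and 36.2 CPM with dox and 160, 153 and 106 CPM without (log2 −2.05, near the members' median). E2f1, the activator of the G1/S genes, was at 6.36, 4.33 and 5.71 CPM against 41.7, 40.7 and 30.0 CPM (−2.78), and Ccne1 at 3.70, 3.10 and 3.64 CPM against 22.6, 20.6 and 11.5 CPM (−2.39). All 3 regulators, all 6 MCM genes (median −2.45) and all 5 licensing genes (−2.98) were lower, while primase and polymerases had the median nearest 0 (−0.94). The 3 members that did not pass were Cdc7 (10.5, 13.5 and 12.6 CPM against 10.3, 13.2 and 11.0 CPM, 0.08), Rfc1 (−0.06) and Rfc2 (0.16).

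In iMcam at 48 h, 47 genes were lower with dox and 0 higher, beside 24.8% and 24.2% of all genes, and 34 were over 2-fold lower (9.85% of all genes). DESeq2 had 45 lower and 0 higher, and 0 were higher at an unadjusted p under 0.05. With replicate numbers as pairs, which the libraries of this line bore out, the count was 47 again. Rrm2 was at 29.9, 19.8 and 31.5 CPM with dox and 171, 159 and 219 CPM without (log2 −2.74, SE 0.203, adjusted p = 0.000164). Cdc6 was at 3.24, 2.09 and 2.43 CPM against 14.9, 15.4 and 15.6 CPM (−2.54), and Mcm5 at 11.5, 6.39 and 9.41 CPM against 52.2, 53.6 and 51.6 CPM (−2.51). The median was −1.36 (0.02 over all genes), with Pcna near it (−1.42). Rfc1 (57.8, 61.6 and 67.1 CPM against 63.4, 60.6 and 64.2 CPM, 0.01) and Rfc2 (−0.17) did not pass.

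The difference between lines was again tested as an interaction, with the iMyoD1 libraries in another table under the same batch label. Against iMyoD1, the dox effect in iCdh23 was lower for 36 genes and higher for 2, beside 21.6% and 14.2% of all genes, with a median difference of −1.14 (−0.05 over all genes). The lowest were Rrm2 (−3.54, SE 0.247, adjusted p = 5.50e-07), Mcm5 (−3.44) and Mcm3 (−2.62), and the higher ones were Cdc7 (1.41) and Rfc2 (0.41). All 6 MCM genes and all 5 licensing genes were among the 36, but 3 of the 8 primase and polymerase genes were. In iMcam against iMyoD1, 22 genes were lower and 0 higher (4.06% and 2.35% of all genes), with Mcm5 (−1.59, SE 0.199), Cdc6 (−1.43) and Mcm3 (−1.30) lowest and a median of −0.50. For higher genes, DESeq2 and an unadjusted p under 0.05 each gave 1. Between the adhesion lines, 11 genes were lower in iCdh23 than in iMcam and 0 higher (7.61% and 3.03% of all genes), with Rrm2 (−2.55), Mcm5 (−1.85) and E2f1 (−1.70) lowest. There DESeq2 gave 1 higher, and 2 were higher at an unadjusted p under 0.05. These counts moved with the fit and with single libraries: the last was 5 in the fit of all groups, 20 without iCdh23 vehicle replicate 3 and 7 without iCdh23 dox replicate 2, iCdh23 vehicle replicate 2, iMcam dox replicate 3 or iMcam vehicle replicate 1, and the count for iMcam against iMyoD1 was 0 in the fit of all groups, 12 without iMyoD1 48 h dox replicate 2 and 14 without iMyoD1 48 h vehicle replicate 2.

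In the 120 h fractions without dox, the summed level of the replication genes was lower in each myotube-enriched library than in the myoblast-enriched library of the same number, while 0 of 49 genes passed the unpaired test. Their summed level was 2426, 1265 and 1650 CPM in the myoblast-enriched libraries and 1360, 854 and 1058 CPM in the myotube-enriched ones, so that the groups overlapped while each numbered pair went down. The median log2 was −0.83 (−0.00 over all genes), and Rfc1 (−0.12) and Rfc2 (−0.18) were nearest 0. In the edgeR test, 24 were lower and 0 higher at an unadjusted p under 0.05, the smallest adjusted p was 0.117, and DESeq2 called 8 lower and 0 higher, while the fit of all groups called 31 members. Over all genes 0.0143% were lower and 0.578% higher. Same-numbered libraries deviated together (correlations of residuals 0.413, 0.117 and 0.189), and with the number as a block 18 genes were lower and 0 higher, beside 1.65% and 3.17% of all genes.

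In that blocked fit, Tk1 (log2 −1.27, SE 0.133, edgeR adjusted p = 0.00766), Mcm6 (−1.18, SE 0.124), Dbf4 (−1.30), Chaf1b (−1.22), Mcm5 (−1.15) and Uhrf1 (−1.15) were lower in the myotube-enriched fraction. Mcm6 was at 141, 74.2 and 95.8 CPM in the myoblast-enriched libraries and 64.4, 31.5 and 41.4 CPM in the myotube-enriched ones. Mcm5 was at 67.3, 17.4 and 27.5 CPM against 24.3, 11.2 and 10.7 CPM. The first myoblast-enriched library was the highest for both genes. Cdc6 (17.1, 3.43 and 5.36 CPM against 5.28, 2.61 and 2.34 CPM, blocked log2 −1.10) and Rrm2 (223, 127 and 213 CPM against 165, 48.0 and 183 CPM, −0.67) did not pass. In the unpaired edgeR fit, 4 of 20 myotube markers were higher in the myotube-enriched fraction (median 1.36), while 0 of 20 mitosis markers passed (median −1.26).

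With dox, 0 of 49 genes passed between the fractions (0% of all genes higher and 0% lower), the median was −0.71, 5 were lower and 0 higher at an unadjusted p under 0.05, and DESeq2 called 0, while the fit of all groups called 12 members. The summed level was 1301 and 1854 CPM in the 2 myoblast-enriched libraries and 1115, 800.3 and 1147 CPM in the 3 myotube-enriched ones, without overlap. Nor did a member pass between dox and vehicle within a fraction in the unpaired fit. In the myoblast-enriched fraction 1.82% of all genes were higher and 2.52% lower, the members' median was −0.15, 3 members were lower and 0 higher at an unadjusted p under 0.05, and DESeq2 called 1 lower and 0 higher. Leaving out the second myoblast-enriched vehicle library gave 3 calls. With the replicate number as a block, over the 2 pairs there are, 16 members were higher with dox and 3 lower, beside 13.9% and 14.5% of all genes, with Cdc6 (0.98), Gins2 (0.91) and Pole2 (0.89) highest and Rrm2 (−0.76), Gmnn (−0.74) and Dbf4 (−0.60) lowest. The members thus leaned lower in the unpaired fit and higher in the blocked one. The vehicle library with the highest sum (2426 CPM) has no dox library of its number, so it does not enter the blocked dox effect. In the 2 pairs the sums went from 1265 to 1301 and from 1650 to 1854 CPM with dox. Few residual degrees of freedom remained in that fit. In the myotube-enriched fraction 0% of all genes were higher and 0% lower, the median was −0.01, and 0 members were called at an unadjusted p under 0.05 or by DESeq2. The dox effect was not shown to differ between fractions (0 members, 0% of all genes in either direction, 0 at an unadjusted p under 0.05 and 0 by DESeq2). The median SE of a member's fold change was 0.311 in the myoblast-enriched and 0.426 in the myotube-enriched fraction in the unpaired fits, against 0.0877 at 48 h.

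**Figure D5:**
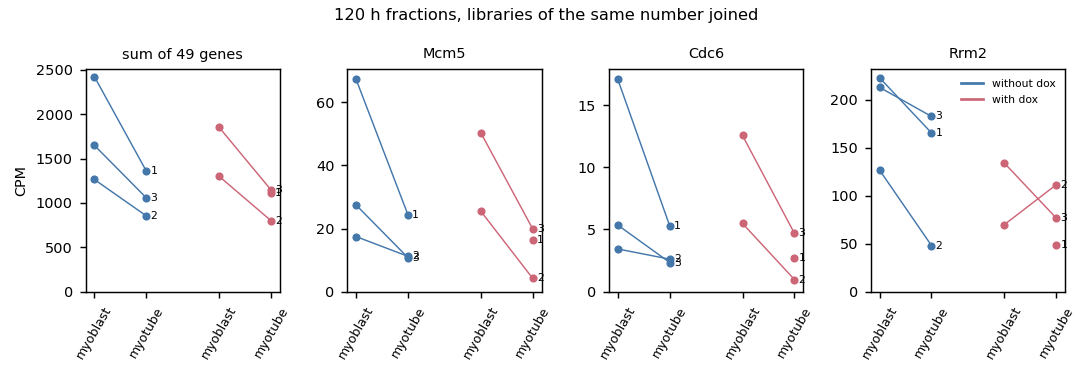
CPM (y axis) of the 49 genes summed and of Mcm5, Cdc6 and Rrm2 in the myoblast- and myotube-enriched fractions at 120 h (x axis), with a dot for each library and lines between libraries of the same replicate number. Without dox, the 3 sums fall from 2426, 1265 and 1650 CPM to 1360, 854 and 1058 CPM.

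Of 55 other replication and S-phase genes, a list with no member in it, 0 were higher and 47 lower with dox at 48 h in iMyoD1 (median −0.56, beside 27.9% and 28.7% of all genes). In iCdh23, 2 were higher and 45 lower (−1.05, beside 31.3% and 32.4%), and in iMcam 2 were higher and 41 lower (−0.75, beside 24.2% and 24.8%). The mitotic cyclin gene Ccna2 (45.9 ± 3.17 against 161 ± 5.47 CPM, log2 −1.82) and the repressor gene E2f7 (−1.71) were lowest in iMyoD1. E2f2 was lowest in iCdh23 (2.07 ± 0.884 against 100.5 ± 35.2 CPM, −5.61) and in iMcam (−3.41). In both adhesion lines Mcm9, which acts in repair and not in the MCM helicase of the fork, was higher with dox (1.13 and 0.63). At 120 h in whole cultures 23 were higher and 8 lower (21.4% and 23.7% of all genes), with Dna2 (1.99) highest and E2f8 (−1.66) and Mtbp (−1.48) lowest. At 0 h with dox 2 were higher and 33 lower (19.1% and 18.7% of all genes), and at 24 h 13 and 27 (31.1% and 31.7%). Over time without dox, 15 were higher and 36 lower at 24 h than at 0 h (37.3% and 37% of all genes). At 48 h the counts against 24 h were 22 and 23, near the shares of all genes (38.4% and 38.4%). At 120 h 7 were higher and 38 lower than at 48 h (33% and 34.1% of all genes), and Rrm2b, a p53-regulated relative of Rrm2, was the highest of them (1.59).

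Markers of other states moved in the same direction as the replication genes in some comparisons and not in others. The shares of all genes called in these comparisons are those given above. All 20 mitosis markers were lower with dox at 48 h in iMyoD1 (median log2 −1.78), iCdh23 (−4.76) and iMcam (−2.92), 14 were higher and 0 lower at 120 h (0.69), and all 20 fell from 0 to 24 h (−1.92) and from 48 to 120 h (−2.52) without dox. Their summed level ran from 42.2 to 71.2 CPM in iCdh23 with dox and from 1210 to 1803 CPM without. Myotube markers were also lower with dox at 48 h, 20 of 20 in iMyoD1 (−1.28; summed level 10030 to 10410 CPM with dox and 23860 to 25660 without), 20 of 20 in iCdh23 (−6.39; 279 to 437 against 9520 to 17490 CPM) and 19 of 20 in iMcam (−2.67; 1084 to 3024 against 6759 to 16380 CPM). In 3 further comparisons the myotube markers went against the replication genes or split. With dox their summed level was higher at 0 h (455 to 475 against 367 to 378 CPM, 6 of 9 tested higher and 0 lower) and at 24 h (268 to 278.5 against 191 to 222 CPM, 3 of 17 higher and 1 lower). From 48 to 120 h without dox, 10 of 20 were higher and 7 lower. Between 24 and 48 h without dox, where the batch label changes too, the mean summed level of mitosis markers rose from 1295 to 2102 CPM. In the same step the sums rose from 482 to 2820 CPM for myoblast, from 523 to 1390 CPM for reserve cell and from 206 to 24770 CPM for myotube markers.

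At 120 h with dox, 13 myotube markers were lower and 1 higher beside the 21 replication genes that were higher. In these whole cultures the summed level of myoblast markers was 1164 to 1286 CPM with dox and 2289 to 3277 CPM without. That of reserve cell markers overlapped (573 to 603 against 591 to 636 CPM). Myoblast markers with dox at 48 h had 2 of 10 higher and 5 lower in iMyoD1, 7 lower in iCdh23 and 8 lower in iMcam, and reserve cell markers 3 of 9 higher and 5 lower in iMyoD1, 2 and 6 in iCdh23 and 2 and 5 in iMcam. Of all genes, 27.9% were higher and 28.7% lower in iMyoD1, 31.3% and 32.4% in iCdh23 and 24.2% and 24.8% in iMcam. Of the markers of cells outside the muscle lineage, the summed level over the 4 endothelial genes was at most 1.44 CPM, over the 4 blood cell genes at most 4.04 CPM and over the 4 neural genes at most 48.6 CPM in any library. The neural sum was lower with dox at 48 h in iMyoD1 (3.26 to 4.13 against 10.4 to 11.8 CPM), iCdh23 (12.9 to 14.2 against 20.3 to 42.8 CPM) and iMcam (8.67 to 11.2 against 31.1 to 48.6 CPM). Of the 2 neural genes tested there, Tubb3, a tubulin, was lower in each line (log2 −2.10, −2.35 and −2.24) and Syp, a synaptic vesicle protein, was higher (1.36, 2.93 and 2.01). The part of these other states in the replication results was not tested.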

How the data were processed

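RNA-seq libraries of polyadenylated RNA (TriZol extraction, NEBNext Ultra II) were mapped and quantified by the authors with nf-core/rnaseq 3.18.0, and the deposited files hold Salmon's estimated counts per transcript, not normalized; the submitters' processing notes name mm10. The annotation release and strand setting are not given in the sources used here. Estimated counts were summed per gene (GENCODE vM21 held 98.72% of the transcripts) and rounded to whole numbers. The 47 libraries held 15066338 to 50950674 counts (median 22837926). No 2 replicates agreed within sampling noise. Samples were grouped by their labels.

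Each comparison was fitted alone with edgeR 4.0.16 (filterByExpr, TMM, quasi-likelihood F test, Benjamini-Hochberg over all genes tested). A gene is called past the test at an adjusted p under 0.05, and the SE is the fold change over the root of F. CPM used TMM factors over all libraries, and TPM used transcript lengths and no TMM factors. Interactions were fitted over the 4 groups involved. Replicate numbers were held to pair samples where there were at least 3 pairs and every pair's residuals correlated over 0.1: iMcam (0.362, 0.227 and 0.419) and the fractions without dox (0.413, 0.117 and 0.189). Dox in the myoblast-enriched fraction has 2 pairs (0.446 for both, equal by construction) and was fitted unpaired. Whether replicates are separate cultures beyond the label of biological replicate is not stated, so p-values measure the spread between these samples.

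Alternatives were DESeq2 1.42.0, its size factors in edgeR, no filter, a fit of all groups, the replicate block, and leaving out each library. The set without the 14 members overlapped on the opposite strand was added after seeing the data. Scripts were tested on simulated data. Tools were R 4.3.3, limma 3.58.1, Python 3.11.15, pandas 2.3.3, numpy 2.4.6 and matplotlib 3.10.9. Named genes are the 3 largest changes past the test in each direction per comparison, fixed exemplars of each role and members that moved against the rest, and 2 per direction of the 55 other replication genes, of which 1 result is not reported here. Other genes named for their role, such as Mcm3, Mcm6 and Rfc2, were chosen from the member list after their values were seen, as were Tubb3 and Syp from the neural list. The members and all lists were chosen with earlier results of these data known.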

Additional observations from a re-analysis of the deposited data

Results flagged for a closer look

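Each result here is a dox effect that differed between times or lines by the interaction test (edgeR's quasi-likelihood test, adjusted p under 0.05). Between 0 and 24 h in iMyoD1, the dox effect was higher at 24 h for 10 members and lower for 7, beside 13.3% and 20.7% of all genes, with Tk1 at 0.70 and Dut at −0.51 on the log2 scale, and the fit of all groups called 0 members. Over both directions, the share of members called was near that of all genes. Between 24 and 48 h it was lower for 39 and higher for 1, beside 20.7% and 22.7% of all genes, with Gmnn at −1.76 and Orc6 at 0.23. There the fit of all groups called 10 members, and DESeq2 called 41 lower and 0 higher. Between 48 and 120 h it was higher for 39 (16.8% of all genes), with Cdc7 at 2.87. In iCdh23 against iMyoD1 it was lower for 36 and higher for 2 (21.6% and 14.2% of all genes), with Rrm2 at −3.54 and Cdc7 at 1.41. In iMcam against iMyoD1 it was lower for 22 (4.06% of all genes), with Mcm5 at −1.59, and the fit of all groups called 0. In iCdh23 against iMcam it was lower for 11 (7.61% of all genes), with Rrm2 at −2.55, and the fit of all groups called 5.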

How the results depend on the processing

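Of 1376 alternative values of the 112 named fold changes, 1305 kept direction and side of the threshold. Fitting all 16 groups together changed the counts of members past the test most: 38 to 1 for dox at 0 h, 34 to 9 at 24 h, 39 to 20 and 38 to 21 from 24 to 48 h without and with dox, 0 to 31 and 0 to 12 between fractions without and with dox, 17 to 0 for the interaction of 24 with 0 h, 40 to 10 for 48 with 24 h, 22 to 0 for iMcam with iMyoD1 and 11 to 5 for iCdh23 with iMcam. The cause was not tested. With the replicate block, 18 members passed between fractions without dox (all lower) and 19 for dox in the myoblast-enriched fraction (16 higher and 3 lower, beside 13.9% and 14.5% of all genes), where 2 pairs remain. The block changed no other count beyond 1.5 times. DESeq2 called 1 member for dox in the myoblast-enriched fraction and 8 between fractions without dox, and no filter gave 3 and 3. Leaving out each library gave 0 to 3 for dox in the myoblast-enriched fraction (3 without vehicle replicate 2), 10 to 17 for 24 with 0 h (10 without 24 h dox replicate 1), 12 to 25 for iMcam with iMyoD1 and 7 to 20 for iCdh23 with iMcam. The reversed values were all of Rfc1, which passed in neither comparison. For dox at 48 h, leaving out each library gave −0.09 to 0.03 (0.03 without dox replicate 3). In iMcam it gave −0.05 to 0.06, and Rfc1 was at −0.01 with DESeq2, with its size factors and in the fit of all groups, at −0.05 without dox replicate 3, and at −0.00 and −0.03 without vehicle replicates 1 and 2. The median SE of a member's fold change was 0.311 to 0.446 in the unpaired comparisons of the fractions and at most 0.173 in the other comparisons between groups.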
